A study of Mus musculus with 10 samples.

Results

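The genes described here are 31 genes of B cells, plasma cells and lymph node vessels or follicles, taken by symbol from the 24421 genes counted in white fat of C57BL/6J mice, sampled under the skin of the inguinal region. All 31 were found. They fall into 10 receptor and surface genes of B cells, 9 genes of B cell signalling and transcription, 3 receptors for the survival factors BAFF and APRIL, 1 plasma cell gene, 5 genes of lymphoid cytokines, homing and help, and 3 genes of high endothelial venules. The left hindlimb had received 33.3 Gy of electrons as FLASH, that is at ultra-high dose rate (4 libraries), or in the conventional mode called CONV (3 libraries), and the third group was sham, not irradiated (3 libraries). Fat from the treated area was taken at day 70, and all libraries were labelled WT and batch 1. The sources used here do not give the sex or age of the mice, nor whether each library is a separate animal, and p-values measure the spread between these libraries, which may be in part technical.

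B cells recognise antigen through a surface immunoglobulin that signals through Cd79a and Cd79b. In lymph nodes they gather in follicles around follicular dendritic cells, and they enter the node from the blood across high endothelial venules, whose cells carry sulphated, mucin-like ligands for lymphocytes. Plasma cells, which arise from activated B cells, secrete antibody and enlarge the secretory machinery of the endoplasmic reticulum. In mice the inguinal fat pad surrounds a lymph node. The labels do not say whether that node was taken with the 10 to 15 mg of frozen fat used per extraction, and its part in the values below was not tested.

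Levels are CPM, counts scaled to 1e+06 per library after TMM normalisation. Counts assigned to genes were 22.4 to 36.0 M (M, 1e+06) per library, so that 3 counts, the limit that a count of 0 allows, equal 0.0909 to 0.114 CPM. This limit and all intervals on ratios cover counting error only. The adipocyte list, 12 genes such as Lpl and Adipoq, summed to 4620 to 38500 CPM in every library, so that the labelled tissue was present throughout. FLASH replicate 3 and CONV replicate 2 stood apart from the other 8 libraries. Their adipocyte sums were 5970 and 4620 CPM, against 27300 to 38500 CPM in the other irradiated libraries and 24500 to 31000 CPM in sham. Sums of 14 T cell genes were 1290 CPM in FLASH replicate 3 and 905 CPM in CONV replicate 2, against 12.1 to 20.9 CPM in the other irradiated libraries and 11.8 to 19.1 CPM in sham. Every comparison below is therefore given with all 10 libraries and with 8, without this pair, a choice made with earlier results of these data known.

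The B cell and lymph node genes summed to 3700 CPM in FLASH replicate 3 and 4930 CPM in CONV replicate 2. The sums were 28.1, 32.0 and 37.1 CPM in FLASH replicates 1, 2 and 4, and 70.9 and 35.2 CPM in CONV replicates 1 and 3. Sham replicates 1 to 3 had 34.4, 34.8 and 37.6 CPM. The level of the module thus depended on 1 library of each irradiated group, and the other libraries lay near sham, with CONV replicate 1 the highest of them. Much of the sum outside the pair came from Bank1, Btk and Blnk. They had 15.5, 15.7 and 9.58 CPM in CONV replicate 1 and 8.67, 6.70 and 5.55 CPM in sham replicate 1. Myeloid cells also make Btk and Blnk, so that these sums are not a level of B cells alone. In bulk tissue, fewer cells of a type and less RNA per cell cannot be told apart.

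**Figure D1:**
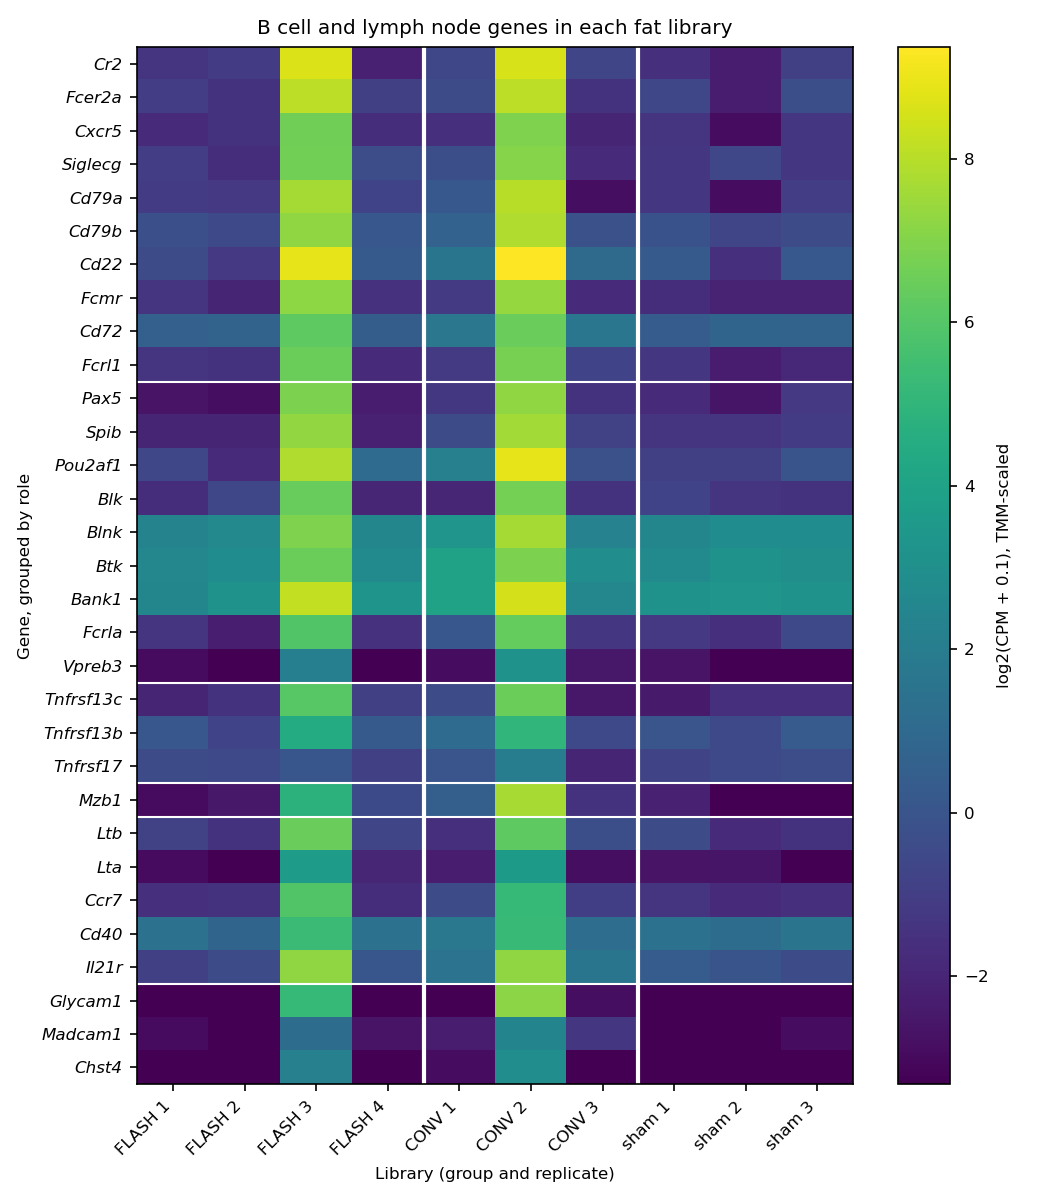
Levels of the 31 genes (rows, grouped by role) in the 10 libraries (columns), as log2 of CPM with 0.1 added. FLASH replicate 3 and CONV replicate 2 are bright in nearly every row; Tnfrsf17 stays low in both, at 0.953 and 3.91 CPM.

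A level at least 10-fold over the highest sham library, or over the floor of 3 counts where that was higher, was reached by 30 of the 31 genes in FLASH replicate 3 and by 30 of 31 in CONV replicate 2. The background over all 24421 genes was 2.75% in FLASH replicate 3 and 3.31% in CONV replicate 2. Among the 25 genes that passed the low-count filter it was 24 in each library, where the background over all 15266 genes tested was 3.09% and 3.88%. The pair's counts helped genes to pass this filter, so that counts and medians over the 25 genes are descriptions. Earlier results had shown the pair to be rich in lymphocyte transcripts, and the genes were chosen with those results known. The counts over the 31 genes in the pair are thus descriptions too, and not a test against the background. The exception in both libraries was Tnfrsf17, which encodes BCMA, a receptor of late B lineage and plasma cells. In CONV replicate 1 only Mzb1 of the 31 genes reached this level, against a background of 0.164%. None did in FLASH replicates 1, 2 and 4, with backgrounds of 0.00409%, 0.00819% and 0.45%, or in CONV replicate 3, with 0.119%. Folds over the sham mean had a median over the 25 genes tested of 262 in FLASH replicate 3 and 347 in CONV replicate 2. The median was 0.947, 0.925 and 1.04 in FLASH replicates 1, 2 and 4, and 2.10 and 1.16 in CONV replicates 1 and 3.

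**Figure D2:**
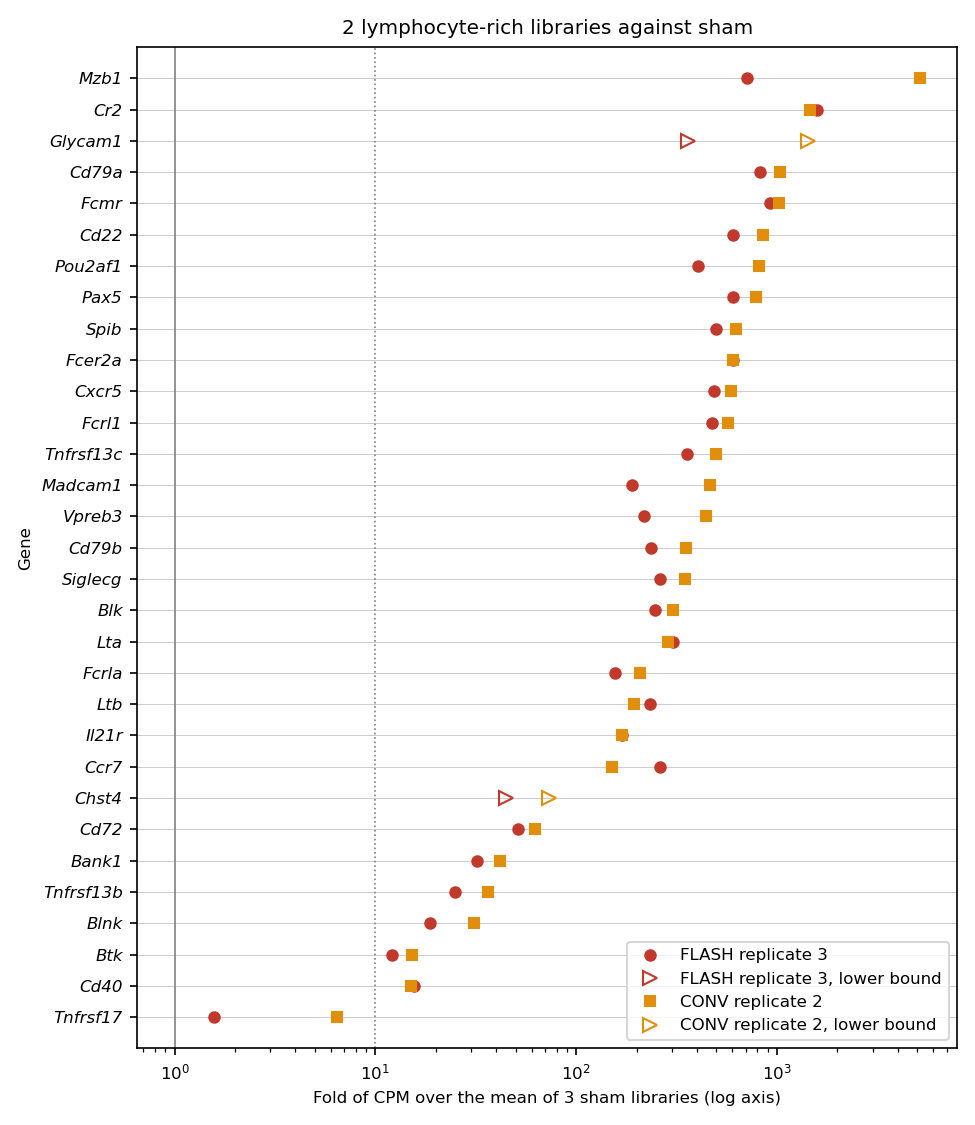
Fold of CPM over the mean of the 3 sham libraries (log axis) for each gene in FLASH replicate 3 and CONV replicate 2. Open triangles are lower bounds for Glycam1 and Chst4, which had no count in sham; all genes but Tnfrsf17 lie right of the dotted line at 10-fold.

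Among the receptors and surface molecules, Cr2 (ENSMUSG00000026616.15, chr1:195136811-195176716 on mm10, minus strand) is the complement receptor of mature B cells and follicular dendritic cells. It reached 0.273, 0.368, 411 and 0.123 CPM in FLASH replicates 1 to 4. It reached 0.543, 381 and 0.518 CPM in CONV replicates 1 to 3, and 0.242, 0.0981 and 0.436 CPM in sham replicates 1 to 3. FLASH replicate 3 was 1590-fold over the sham mean (95% interval 1080 to 2500) and CONV replicate 2 was 1470-fold over it (996 to 2320), while the other FLASH libraries overlapped sham. Cd79a, the signalling chain of the B cell receptor, stood at 0.364, 0.331, 204 and 0.493 CPM in FLASH, at 1.02, 255 and 0.0370 CPM in CONV and at 0.303, 0.0327 and 0.402 CPM in sham. Cd22, an inhibitory lectin of the B cell surface, had 0.668, 0.331, 468 and 1.11 CPM in FLASH, 2.94, 659 and 2.00 CPM in CONV and 1.09, 0.229 and 1.01 CPM in sham. All 3 CONV libraries exceeded all sham libraries for Cd22, while among the FLASH libraries replicates 1 and 2 lay within the sham range, replicate 4 just above it and replicate 3 far above it.

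Cd72, an inhibitory coreceptor that macrophages also make, had a higher floor outside the pair. It stood at 1.37, 1.54, 74.0 and 1.23 CPM in FLASH, 3.16, 89.7 and 3.04 CPM in CONV, and 1.18, 1.60 and 1.54 CPM in sham. All CONV libraries lay above sham, while FLASH replicates 1, 2 and 4 lay within the sham range. Of its exon bases, 41.6% overlap Tesk1 on the opposite strand, and with the strand setting of the counting not given, reads of both genes cannot be told apart with certainty. Tesk1 itself had 26.2 to 46.1 CPM in FLASH, 26.2 to 41.5 CPM in CONV and 26.5 to 36.2 CPM in sham, ranges that overlap.

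The remaining 6 surface genes repeated the pattern. In FLASH replicate 3 they ranged between 89.9 CPM, for the Fc receptor-like gene Fcrl1, and 278 CPM, for the low-affinity IgE receptor Fcer2a. In CONV replicate 2 the range had the same ends, with 108 CPM for Fcrl1 and 278 CPM for Fcer2a. The follicle homing receptor Cxcr5, the inhibitory lectin Siglecg, the receptor chain Cd79b and the IgM receptor Fcmr lay between them. None of the 6 exceeded 1.47 CPM in any other library, the value of Cd79b in CONV replicate 1. Cxcr5, which the low-count filter removed, had 97.9 and 119 CPM in the pair and 0.0327 to 0.302 CPM elsewhere.

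Genes of B cell signalling and transcription differed mainly in how much of them was present outside the pair. Pou2af1, a coactivator that binds octamer factors at immunoglobulin promoters, had 0.547, 0.184, 231 and 2.06 CPM in FLASH, 4.47, 468 and 0.777 CPM in CONV and 0.424, 0.425 and 0.872 CPM in sham. Spib, an ETS factor of B cells, had 0.152, 0.147, 156 and 0.123 CPM in FLASH, 0.639, 195 and 0.444 CPM in CONV and 0.273, 0.294 and 0.369 CPM in sham. For Spib, FLASH replicates 1, 2 and 4 lay below every sham library and all CONV libraries above. Pax5, which maintains B cell identity, had 117 and 153 CPM in FLASH replicate 3 and CONV replicate 2 and at most 0.335 CPM elsewhere.

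Btk and Blnk, the kinase and the adaptor that relay the B cell receptor signal and that myeloid cells also make, were not at trace level outside the pair. Btk had 5.71, 7.21, 92.2 and 6.53 CPM in FLASH, 15.7, 116 and 7.29 CPM in CONV and 6.70, 8.60 and 7.65 CPM in sham. Blnk had 4.95, 6.22, 121 and 5.58 CPM in FLASH, 9.58, 201 and 4.85 CPM in CONV and 5.55, 6.99 and 6.98 CPM in sham. Both were high in the pair and next highest in CONV replicate 1. The scaffold gene Bank1 behaved likewise, with 289 CPM in FLASH replicate 3, 376 CPM in CONV replicate 2, 15.5 CPM in CONV replicate 1 and 5.53 to 9.64 CPM in the other libraries. Per kilobase of exon, Btk, Bank1 and Blnk had sham mean levels of 2.43, 1.20 and 1.09 CPM per kb, the highest of the 31 genes.

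The other members of the signalling group were near the limit of counting outside the pair. The kinase Blk had 86.0 CPM in FLASH replicate 3 and 106 CPM in CONV replicate 2, and 0.154 to 0.552 CPM elsewhere. The Fc receptor-like gene Fcrla had 60.8 and 81.0 CPM in the pair, 0.990 CPM in CONV replicate 1 and at most 0.604 CPM in the rest. Vpreb3, known in mice from B cell precursors, had 4.38 CPM in FLASH replicate 3 and 9.01 CPM in CONV replicate 2, and at most 0.0740 CPM, or 2 counts, in any other library.

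Promoter windows are shown for genes of this module that carried a searched motif and whose levels moved together across the libraries. RefSeq windows on GRCm38.p6, 250 bases before to 50 after a start site, were matched by symbol for 25 of the 31 genes, in 28 windows. Each was searched on both strands for the octamer ATGCAAAT, the PU.1 and Spi-B core GAGGAA, the EBF1 palindrome TCCCNNGGGA and the E box CAGGTG. Capitals in the sequences, given 5′ to 3′ on the strand of the gene, mark these motifs in either orientation, and hits of different motifs did not overlap.
Cd79a, chr7:24897247-24897546, plus strand: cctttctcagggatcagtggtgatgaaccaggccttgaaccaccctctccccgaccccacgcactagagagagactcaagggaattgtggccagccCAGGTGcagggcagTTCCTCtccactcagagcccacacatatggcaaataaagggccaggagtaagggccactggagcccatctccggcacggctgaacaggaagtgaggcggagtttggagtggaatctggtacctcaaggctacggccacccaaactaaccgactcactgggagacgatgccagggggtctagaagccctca
Cd22, chr7:30878979-30879278, minus strand: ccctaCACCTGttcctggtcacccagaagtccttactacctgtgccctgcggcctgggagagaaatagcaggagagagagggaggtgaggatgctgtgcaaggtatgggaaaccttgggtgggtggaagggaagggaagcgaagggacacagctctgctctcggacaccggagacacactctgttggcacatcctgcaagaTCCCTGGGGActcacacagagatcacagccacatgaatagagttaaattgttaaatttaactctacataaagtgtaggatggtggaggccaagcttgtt
Blnk, chr19:40994172-40994471, minus strand: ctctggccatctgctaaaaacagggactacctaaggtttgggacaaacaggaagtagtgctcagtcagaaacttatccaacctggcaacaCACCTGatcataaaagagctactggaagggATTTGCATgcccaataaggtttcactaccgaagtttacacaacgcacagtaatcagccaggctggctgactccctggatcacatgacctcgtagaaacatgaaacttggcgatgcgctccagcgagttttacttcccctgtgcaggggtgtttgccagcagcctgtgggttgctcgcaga
Vpreb3, chr10:75948050-75948349, plus strand: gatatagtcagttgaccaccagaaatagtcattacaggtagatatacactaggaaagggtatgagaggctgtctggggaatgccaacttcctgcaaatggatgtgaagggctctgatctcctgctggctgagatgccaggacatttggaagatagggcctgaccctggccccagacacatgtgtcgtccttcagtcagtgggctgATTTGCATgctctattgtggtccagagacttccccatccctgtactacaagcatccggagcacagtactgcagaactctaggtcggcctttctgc
Glycam1, chr15:103565032-103565331, minus strand: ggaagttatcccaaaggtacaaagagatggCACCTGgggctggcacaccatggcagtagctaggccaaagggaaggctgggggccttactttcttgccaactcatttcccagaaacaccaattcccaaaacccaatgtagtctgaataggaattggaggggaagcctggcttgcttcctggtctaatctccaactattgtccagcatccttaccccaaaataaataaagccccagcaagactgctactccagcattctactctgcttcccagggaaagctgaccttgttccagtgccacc

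The octamer stood in the windows of Blnk, 130 bases before the start site, and Vpreb3, 45 bases before it, or 7.14% of the windows of the module, against 1.74% of all 32851 windows. The EBF1 palindrome was found in Cd22 alone, 49 bases before the start site (3.57% against 0.904%). The PU.1 and Spi-B core stood in 11 windows (39.3% against 28.3%) and the E box in 11 (39.3% against 20.2%). Glycam1, an endothelial and not a B cell gene, held the E box too. These matches are descriptions of letters in the windows and were not tested.

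The 3 receptors for BAFF and APRIL had unlike levels in FLASH replicate 3 and CONV replicate 2. Tnfrsf13c, the BAFF receptor of mature B cells, had 65.9 CPM in FLASH replicate 3 and 91.8 CPM in CONV replicate 2, and 0.0740 to 0.639 CPM in the other libraries. Tnfrsf13b, which encodes TACI, had 22.1 and 32.3 CPM in the pair and 0.478 to 2.04 CPM elsewhere. Tnfrsf17 had 0.668, 0.588, 0.953 and 0.431 CPM in FLASH, 0.926, 3.91 and 0.148 CPM in CONV and 0.515, 0.588 and 0.704 CPM in sham. The fold over the sham mean for Tnfrsf17 was 1.58 in FLASH replicate 3, with an interval of 0.950 to 2.59 that holds 1, and 6.48 in CONV replicate 2 (4.70 to 9.13). Per kilobase of exon, the 3 receptors had 32.2, 7.79 and 1.17 CPM per kb in FLASH replicate 3 and 44.8, 11.4 and 4.80 CPM per kb in CONV replicate 2.

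Mzb1, a chaperone cofactor of the endoplasmic reticulum in marginal zone B cells and plasma cells, had 0.0304, 0.0736, 28.7 and 0.616 CPM in FLASH, 1.31, 208 and 0.259 CPM in CONV, and 0.121, 0 and 0 CPM in sham. Of the 31 genes, it was the one in which FLASH replicate 3 and CONV replicate 2 differed most. The sham libraries together held 4 counts of Mzb1, so that its folds of 711 in FLASH replicate 3 and 5150 in CONV replicate 2 have wide intervals (261 to 2470, and 1900 to 17800). CONV replicate 1 held 41 counts and FLASH replicate 4 held 20. Of its exon bases, 57.2% overlap Spata24 on the same strand, a gene with 2.10 to 2.78 CPM in FLASH, 0.777 to 3.37 CPM in CONV and 1.44 to 2.67 CPM in sham.

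The genes of cytokines, homing and help were high in the same pair. Ltb, the membrane lymphotoxin that maintains lymphoid tissue, had 0.455, 0.257, 87.7 and 0.524 CPM in FLASH, 0.224, 73.3 and 0.740 CPM in CONV and 0.667, 0.196 and 0.268 CPM in sham. Its partner Lta, a close neighbour on chromosome 17 (chr17:35203165-35205351 on mm10, with Ltb at chr17:35194439-35196320), had 12.7 CPM in FLASH replicate 3 and 12.0 CPM in CONV replicate 2, and at most 0.154 CPM elsewhere. Ccr7, the receptor that guides lymphocytes and dendritic cells into the T cell zone, had 0.243, 0.257, 61.5 and 0.216 CPM in FLASH, 0.639, 35.5 and 0.407 CPM in CONV and 0.273, 0.196 and 0.235 CPM in sham. For Ccr7 all CONV libraries lay above sham, and FLASH replicate 3 was the highest library of all.

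Cd40, through which T cells help B cells and macrophages, had 2.64, 1.62, 39.5 and 2.68 CPM in FLASH, 3.32, 38.2 and 2.18 CPM in CONV and 2.64, 2.12 and 2.88 CPM in sham. Outside the pair its 3 groups overlapped. Il21r (ENSMUSG00000030745.9, chr7:125603429-125633570 on mm10, plus strand) is the receptor for the follicular helper cytokine IL-21. It had 0.425, 0.662, 152 and 0.955 CPM in FLASH, 2.72, 153 and 2.92 CPM in CONV and 1.18, 0.882 and 0.637 CPM in sham. Every CONV library was higher than every sham library in Il21r, and the FLASH libraries other than replicate 3 overlapped sham.

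The 3 vessel genes had almost no count outside the pair. Glycam1, the secreted mucin of high endothelial venules, had 36.4 CPM (955 counts) in FLASH replicate 3 and 144 CPM (4303 counts) in CONV replicate 2, 1 count in CONV replicate 3 and none in the other 7 libraries. Against the floor of 3 counts in each sham library, it was at least 362-fold higher in FLASH replicate 3 and at least 1430-fold higher in CONV replicate 2 than in sham. Chst4, a sulphotransferase of high endothelial venules, had 4.50 and 7.38 CPM in the pair, at least 44.7-fold and 73.3-fold over sham, and 1 count elsewhere, in CONV replicate 1. Madcam1, the addressin bound by α4β7 integrin, had 2.13 and 5.21 CPM in the pair and 0 to 0.296 CPM in the rest, with the highest of these in CONV replicate 3.

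FLASH replicate 3 and CONV replicate 2, each the lone high library of its group, were set side by side as a description. The ratio of CPM in FLASH replicate 3 over CONV replicate 2 had a median of 0.769 over the 31 genes (quartiles 0.638 and 0.867), against 1.02 (0.880 and 1.17) over the 13238 tested genes with at least 1 CPM in both. It was below 1 for 26 genes, with the 95% counting interval below 1 for 24, and the interval lay above 1 for 3. These 3 were Cr2 at 1.08 (1.05 to 1.11), Ltb at 1.20 (1.13 to 1.27) and Ccr7 at 1.73 (1.60 to 1.87).

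The ratio was lowest for Mzb1, at 0.138 (0.128 to 0.149), then Tnfrsf17 at 0.244 (0.152 to 0.378) and Glycam1 at 0.253 (0.236 to 0.272). Most B cell genes lay in a narrow band, with Cd79a at 0.798 (0.770 to 0.826), Spib at 0.798 (0.767 to 0.831) and Cd22 at 0.710 (0.694 to 0.726). Pou2af1 lay lower, at 0.494 (0.479 to 0.509). The 10 other plasma cell genes measured were all below 1, between 0.0721 for Derl3, of endoplasmic reticulum degradation, and 0.446 for Txndc5, a disulphide isomerase. The joining chain of secreted IgM and IgA, Jchain, had 258 CPM in FLASH replicate 3 and 1240 CPM in CONV replicate 2. T cell genes ran the other way, with 13 of 14 above 1 and Cd28 at 0.785 as the exception. The pair thus shared the module as a whole but not its composition.

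**Figure D3:**
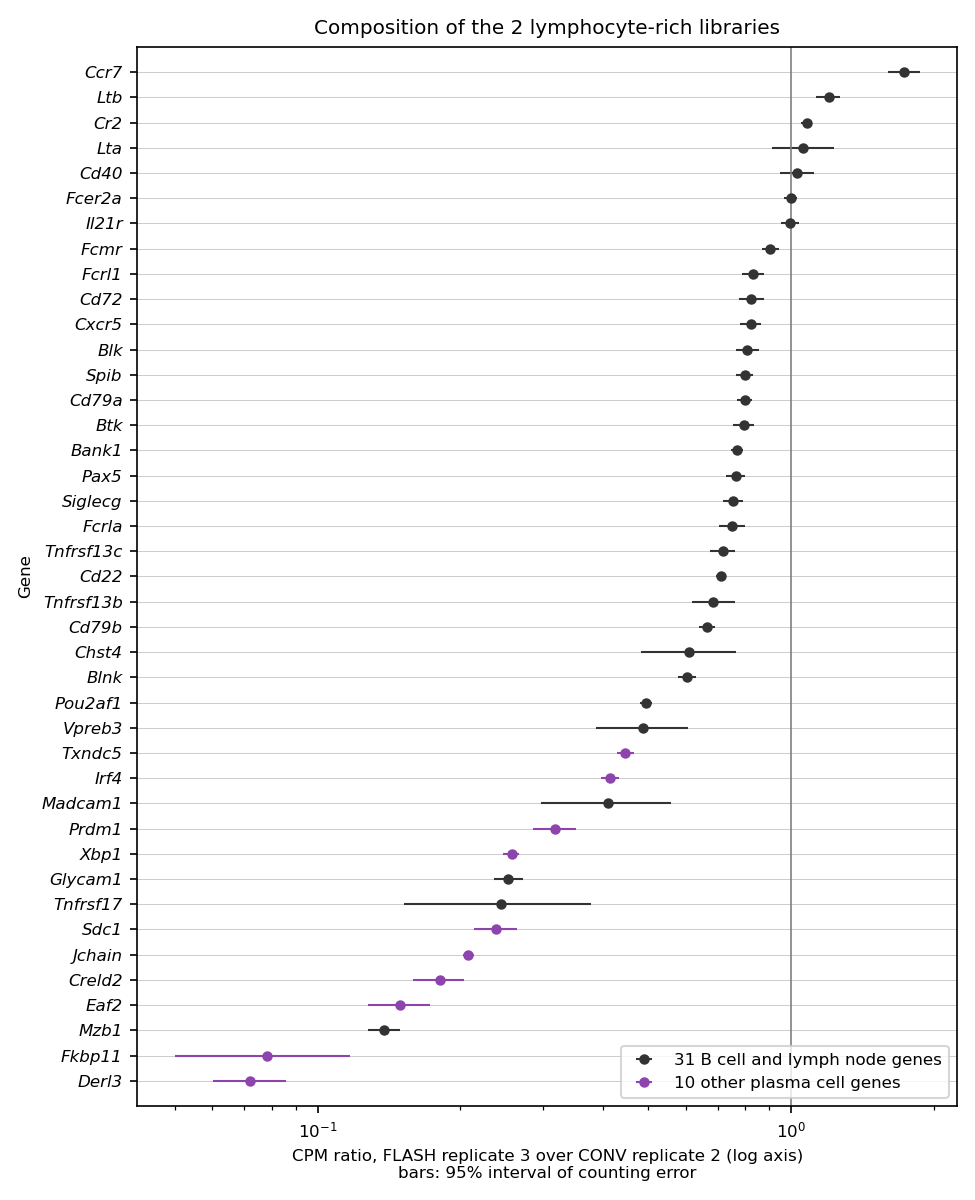
Ratio of CPM in FLASH replicate 3 over CONV replicate 2 (log axis) for the 31 genes and for 10 other plasma cell genes, with 95% intervals of counting error. All plasma cell genes lie left of 1, with Derl3 at 0.0721 and Mzb1 at 0.138, and Ccr7 lies farthest right at 1.73.

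Genes that work beside the module followed it in part. Ebf1, a B cell transcription factor that fat progenitors also express, was not higher in the pair, with 224 and 203 CPM there, 426, 436 and 466 CPM in FLASH replicates 1, 2 and 4, 462 and 204 CPM in the other CONV libraries and 343 to 638 CPM in sham. Cxcl13, the chemokine that draws B cells into follicles, had 74.4 and 124 CPM in the pair, 10.7 and 8.48 CPM in CONV replicates 1 and 3, 0.638 to 1.70 CPM in FLASH replicates 1, 2 and 4, and 2.58 to 3.12 CPM in sham. The T zone chemokine genes Ccl19 and Ccl21a were listed at 0 in every library. So were the globin genes Hba-a1, Hba-a2, Hbb-bs and Hbb-bt, and whether such a 0 means absence or a limit of the counting was not tested. Of the other lists looked up by symbol, 22 of 25 B cell genes and 10 of 15 plasma cell genes were found among the genes counted. Those not found have no level here, which is not evidence of absence from the tissue. No level of an immunoglobulin constant region gene is given, and their expression was not tested.

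FLASH was compared with sham to ask whether the module differed after the ultra-high dose rate. With all 10 libraries, none of the 25 genes that passed the low-count filter had an edgeR adjusted p under 0.05, where the background was 0% of 15266 genes tested, and none had an unadjusted p under 0.05 (background 0.354% positive and 0.295% negative). DESeq2 gave a p for only Btk and Tnfrsf17 of the 25, since it sets the p of a gene with an extreme library to missing, and called neither (background 0%). The other 23 had no DESeq2 test with 10 libraries in any contrast. In none of them did all FLASH libraries lie above sham (background 2.51%) or below it (background 2.46%). All 25 log2 fold changes were positive, with a median of 6.02 against 0.03 for all genes, a size that rests on FLASH replicate 3. Cr2 averaged 103 ± 206 CPM in FLASH (SD, n = 4) and 0.259 ± 0.170 CPM in sham (n = 3), for a log2 difference of 8.62 ± 4.02 (SE, edgeR adjusted p = 0.9999). For Tnfrsf17 the log2 fold change was 0.13 ± 0.84 (edgeR adjusted p = 0.9999). The other 6 genes (Cxcr5, Vpreb3, Lta, Glycam1, Madcam1 and Chst4) were removed by the filter and have levels only.

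Without FLASH replicate 3 and CONV replicate 2, 23 genes were tested, Pax5 and Fcmr also falling to the filter. None had an edgeR adjusted p under 0.05 (background 0% of 15252), none was called by DESeq2 (background 0.0263%), and 1, Spib, had an unadjusted p under 0.05 (background 1.20% negative and 1.32% positive). The log2 fold changes were positive for 9 genes and negative for 14, with a median of −0.07 against −0.01 for all genes. Cr2 averaged 0.255 ± 0.123 CPM in FLASH and 0.259 ± 0.170 CPM in sham (SD, n = 3 each; log2 fold change −0.04 ± 0.63, edgeR adjusted p = 0.9998). For Spib the log2 fold change was −1.14 ± 0.43 (edgeR adjusted p = 0.9998), and it was the 1 gene of 23 whose FLASH libraries all lay below sham, where the background was 4.99%. None had all FLASH libraries above sham (background 4.76%).

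CONV was compared with sham to ask the same of the conventional dose rate. With all 10 libraries, none of 25 genes passed in edgeR (background 0%), nor did Btk or Tnfrsf17 in DESeq2 (background 0.455%), and 2, Mzb1 and Pou2af1, had an unadjusted p under 0.05 in edgeR (background 3.57% positive and 2.29% negative). All 25 log2 fold changes were positive, with a median of 6.85 against 0.08 for all genes, a size that rests on CONV replicate 2. For Mzb1 the log2 fold change was 10.56 ± 3.85 (edgeR adjusted p = 0.6049), and for Cr2 it was 8.92 ± 4.10 (edgeR adjusted p = 0.6049). In 8 of the 25 genes (Cr2, Cd22, Cd72, Fcrl1, Spib, Mzb1, Ccr7 and Il21r) every CONV library lay above every sham library, against a background of 8.63%, and in none did it lie below (background 9.01%).

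Without the pair, CONV held 2 libraries and none of 23 genes passed in edgeR (background 0.0393%). DESeq2 gave an adjusted p for 21 of the 23 and called 2, Cd72 and Il21r (background 4.45%). The log2 fold changes were positive for 21 of 23, with a median of 0.75 against 0.01 for all genes, and 5 genes (Ccr7, Cd22, Cd72, Il21r and Mzb1) had an unadjusted p under 0.05 in edgeR, against a background of 7.02%, and no gene had a negative change with such a p (background 6.24%). Il21r averaged 2.82 ± 0.148 CPM in CONV (SD, n = 2) against 0.901 ± 0.273 CPM in sham (n = 3), which is a log2 difference of 1.62 ± 0.41 (edgeR adjusted p = 0.1644; DESeq2 1.63 ± 0.47, adjusted p = 0.0185). For Cd72 the log2 fold change was 1.08 ± 0.26 (edgeR adjusted p = 0.1489; DESeq2 1.10 ± 0.32, adjusted p = 0.0223). The same 8 genes lay above sham in both CONV libraries, of 23 tested, against a background of 11.9%, and 1, Blk, lay below (background 14.2%).

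For the members chosen by role, no 8-library log2 fold change of CONV against sham passed in edgeR. The change was 1.01 ± 0.66 for Cr2 (edgeR adjusted p = 0.5564), 1.10 ± 1.10 for Cd79a (0.7089) and 0.58 ± 0.31 for Btk (0.4733). Blnk, Ltb, Cd40 and Tnfrsf17 had changes of 0.13 ± 0.30, 0.30 ± 0.71, 0.09 ± 0.33 and −0.16 ± 0.66, with edgeR adjusted p between 0.8774 and 0.9358. Ccr7, at 1.13 ± 0.45 (0.333), and Mzb1, at 4.09 ± 1.50 (0.3002), had larger values.

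**Figure D4:**
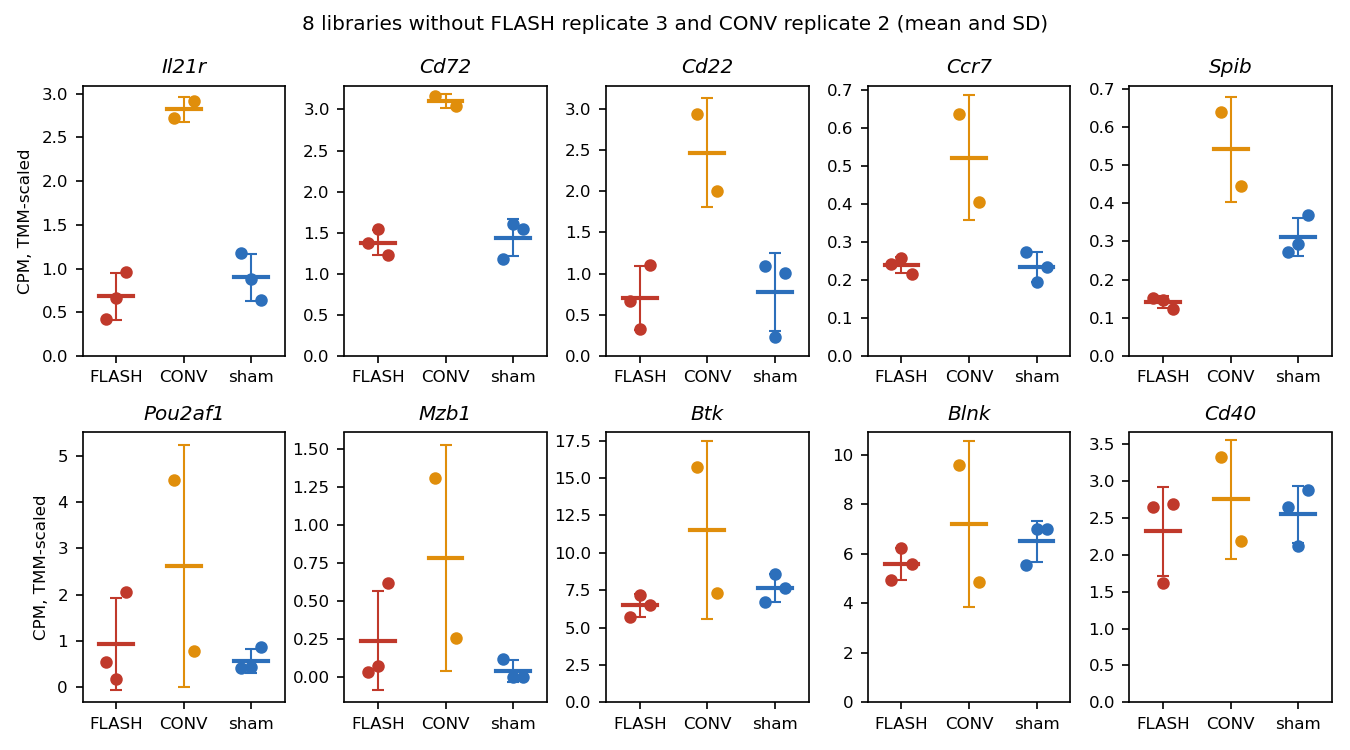
CPM of 10 genes in the 8 libraries without FLASH replicate 3 and CONV replicate 2 (points; bars are mean and SD, with n = 3 FLASH, 2 CONV and 3 sham). Both CONV points lie above all sham points for Il21r, Cd72, Cd22, Ccr7, Spib and Mzb1, and the groups overlap for Pou2af1, Btk, Blnk and Cd40.

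The 2 remaining CONV libraries did not resemble each other. In CONV replicate 1, 21 of the 25 genes lay above all 3 sham libraries, against a background of 28.2% of genes tested, and in CONV replicate 3 it was 9 of 25, against 38.4%. The counts were 1, 2 and 8 of 25 in FLASH replicates 1, 2 and 4, against backgrounds of 28%, 22.9% and 23.6%, and 25 of 25 in both FLASH replicate 3 (42.6%) and CONV replicate 2 (43.5%). CONV replicate 1 also had the highest sum of 13 macrophage genes, 2960 CPM, against 1000 to 1380 CPM in the FLASH libraries, 1850 and 1120 CPM in the other CONV libraries and 1010 to 1250 CPM in sham. Its sum of 10 skeletal muscle genes was 2600 CPM, and that of the other libraries 1.89 to 786 CPM. The part of these in the result was not tested. Il21r and Cd72 were as high in CONV replicate 3 as in CONV replicate 1. In CONV replicate 3 the macrophage sum lay within the sham range, but single genes of that list differed. Cd14 had 40.3 CPM and Fcgr1 11.4 CPM, above the 9.97 to 11.3 CPM and 2.15 to 4.58 CPM of sham. C1qa (92.6 CPM, sham 69 to 88.6 CPM) and C1qb (91.3 CPM, sham 72.6 to 91.2 CPM) lay just above. Csf1r (104 CPM, sham 114 to 145 CPM) and Mertk (39.8 CPM, sham 43.7 to 59.2 CPM) lay below sham, and the rest of the list within it.

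**Figure D5:**
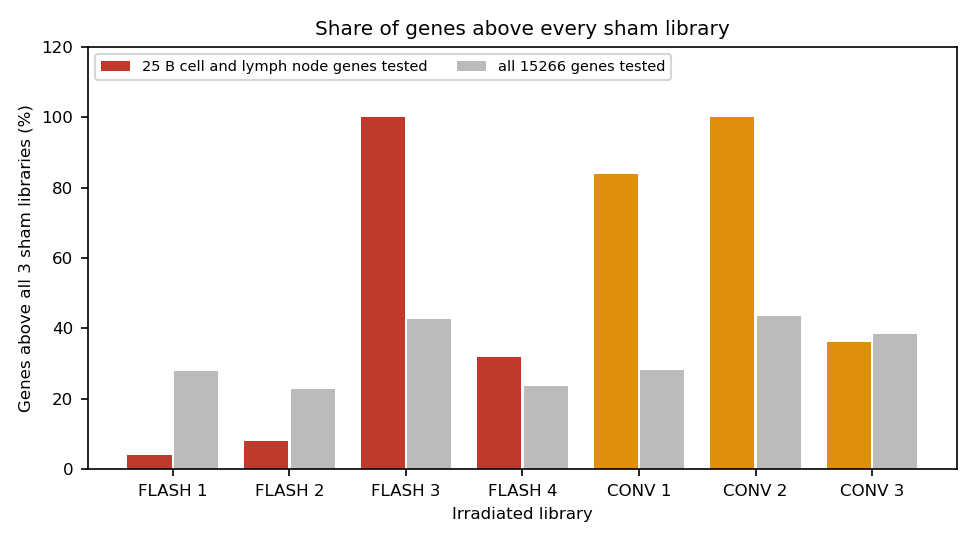
Share of genes above all 3 sham libraries in each irradiated library, for the 25 B cell and lymph node genes tested (coloured bars, red in FLASH and orange in CONV) and for all 15266 genes tested (grey). FLASH replicate 3 and CONV replicate 2 have 25 of 25 and CONV replicate 1 has 21 of 25.

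FLASH was compared with CONV to ask whether the dose rates differed. With all 10 libraries, none of 25 genes passed in edgeR (background 0%), nor did Btk or Tnfrsf17 in DESeq2 (background 0.281%), and none had an unadjusted p under 0.05 (background 1.56% negative and 1.41% positive), nor did the groups separate in any (background 1.15% higher and 1.17% lower). The log2 fold changes were negative for 24 of 25, with a median of −0.75 against −0.05 for all genes, and positive for Ccr7 (0.35 ± 2.09). For Mzb1 the change was −3.25 ± 2.34 (edgeR adjusted p = 0.9995). FLASH replicate 3 and CONV replicate 2 differed in the same direction in most genes, as given above.

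Without the pair, none of 23 genes passed in edgeR (background 0.0131%), and DESeq2 called Cd72 and Il21r (background 4.39%). The change was negative for 21 of 23, with a median of −0.60 against −0.02 for all genes. An unadjusted p under 0.05 was seen in edgeR for 6 genes (Btk, Ccr7, Cd22, Cd72, Il21r and Spib), all with lower levels in FLASH, against a background of 6.90% (6.75% in the other direction). The macrophage list was negative for 12 of 13 genes in the same contrast, with a median of −0.86, and the T cell list for 14 of 14, with a median of −0.38, and their part in the result was not tested. All FLASH libraries lay below both CONV libraries for 8 of 23, against 12.3%, and above both for none, against 13.7%. Il21r had a log2 fold change of −2.03 ± 0.42 (edgeR adjusted p = 0.1369; DESeq2 adjusted p = 0.00179), with 0.681 ± 0.266 CPM in FLASH (SD, n = 3) and 2.82 ± 0.148 CPM in CONV (n = 2). For Cd72 it was −1.15 ± 0.26 (edgeR adjusted p = 0.1527; DESeq2 adjusted p = 0.0139), and for Spib −1.91 ± 0.46 (edgeR adjusted p = 0.16). FLASH and CONV were each set against the same sham libraries, so that their folds over sham are not independent.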

How the data were processed

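Total RNA of inguinal fat was sequenced in 10 libraries after removal of ribosomal RNA, with a stranded kit per the labels' protocols. The deposited files hold raw counts per gene symbol, 1 file per library. Kallisto 0.5.0 and the build mm10 are named in the submitters' processing notes. The aligner, the strand setting and the annotation behind the counts were not given in the sources used here. Each file ends in 5 entries of no gene, which held 52.0% to 69.6% of the reads and were left out. The share was highest in FLASH replicate 3 (69.6%) and CONV replicate 2 (66.7%), against 52.0% to 62% in the other libraries. These 2 libraries also had the fewest counts assigned to genes, 22.4 M and 25.5 M. The part of this in the results was not tested.

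Genes passed filterByExpr, run on the 3 groups. Libraries were scaled by TMM (factors 0.869 to 1.17), and genes were tested with edgeR 4.0.16 in R 4.3.3 by a robust quasi-likelihood fit with 1 mean per group. Tests were two-sided, with Benjamini and Hochberg adjustment over all genes of a contrast and a threshold of 0.05. Fits used 10 libraries or the 8 without FLASH replicate 3 and CONV replicate 2. Alternatives were DESeq2 1.42.0 as the test (counts and shares over genes with an adjusted p) or its size factors as scaling, total counts, no filter, a mean of at least 50 counts, a block for replicate number, and fits without each library in turn. The fits were tested on simulated data. Libraries of a group differed beyond counting noise in every pair, so none was merged.

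Ratios of a library over the sham mean, or of 2 libraries, carry exact 95% intervals of counting error. The members named with fold changes were set by role. Cd72, which DESeq2 called, was added after its values were seen. So were Pou2af1, Spib, Cd22, Blk and Fcrl1, for counts of few genes. Gene overlaps and exon lengths came from GENCODE M21 on mm10. The genes and lists were chosen with earlier results of these data known. A few genes of the other lists are not reported here.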

Additional observations from a re-analysis of the deposited data

Results flagged for a closer look

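In all 31 genes the highest FLASH library was FLASH replicate 3. In 30 of them, all but Tnfrsf17, its distance to the next FLASH library took up nearly the whole range of CPM in that group of 4 libraries. Chance alone flags about 1 in 20 such groups, but that rate is no yardstick here. The genes were chosen when this library was already known to be rich in lymphocyte transcripts. The 30 genes also share the same library, so that they are not independent. The share of the range was 1 for Pax5, Spib, Glycam1 and Chst4, and 0.999 for Cr2, Fcer2a, Cxcr5, Cd79a, Fcmr, Fcrl1 and Ccr7. It was 0.998 for Cd22, 0.997 for Cd79b, Fcrla, Ltb and Il21r, 0.996 for Cd72 and Tnfrsf13c, and 0.995 for Siglecg and Blk. Lower shares were 0.993 for Vpreb3, 0.992 for Pou2af1, 0.989 for Blnk, 0.988 for Lta, 0.986 for Bank1 and 0.983 for Btk. The lowest were 0.980 for Mzb1, 0.972 for Cd40, and 0.971 for Tnfrsf13b and Madcam1. The same library had the lowest adipocyte sum of its group, 5970 CPM, and its part in the result was not tested. CONV and sham, with 3 libraries each, were too small for the same measure.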

How the results depend on the processing

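No member had an edgeR adjusted p under 0.05 in any of the 3 contrasts, with 10 or 8 libraries, under another scaling or filter, the block or any library left out. With 10 libraries DESeq2 gave no adjusted p to 23 of 25 members, so its counts there cover few of them. It called 2 members with 8 libraries in CONV against sham and 2 in FLASH against CONV. Genes called by DESeq2 with 10 libraries were 66 in CONV against sham and 40 in FLASH against CONV, where edgeR called 0 in each. With 8 libraries DESeq2 called 4 in FLASH against sham, 663 in CONV against sham and 667 in FLASH against CONV, where edgeR called 0, 6 and 2. With no filter edgeR called 5 in FLASH against CONV. Leaving out each library gave 0 to 1 genes with 10 libraries in CONV against sham and in FLASH against CONV. With 8 libraries it gave 0 to 1134 in CONV against sham and 0 to 1025 in FLASH against CONV. The highest of these were without CONV replicate 1, which leaves 1 CONV library, taken to vary as the other groups do. The cause of these differences was not tested.

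Replicate numbers are shared by the groups, and correlations between the deviations of same-numbered libraries were −0.756 to 0.261. The lowest, −0.756 and −0.608 between FLASH and CONV for numbers 2 and 3, include CONV replicate 2 or FLASH replicate 3. With these 2 unlike libraries included, the correlations cannot decide whether same-numbered libraries share more than a number. With the number as a block, 0 genes were called with 8 libraries in CONV against sham and 0 in FLASH against CONV, against 6 and 2 without it. The block turned 4 log2 fold changes with 8 libraries, to 0.731 for Cr2 and −0.00125 for Ccr7 in FLASH against sham, and to −0.034 for Ltb and −0.0801 for Cd40 in CONV against sham. Total counts turned that of Ccr7 in FLASH against sham to −0.0154.

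Leaving out a library turned the sign of other uncalled values. With 10 libraries, log2 fold changes of FLASH against sham ran from −0.0471 to 9.17 for Cr2, −0.25 to 2.22 for Btk, −0.23 to 2.79 for Blnk, −0.11 to 0.29 for Tnfrsf17, −0.15 to 2.56 for Cd40 and −0.41 to 5.84 for Il21r, each lowest without FLASH replicate 3. In CONV against sham Tnfrsf17 ran from −0.16 to 1.98, and in FLASH against CONV Mzb1 ran from −8.16 to 3.23 and Tnfrsf17 from −1.86 to 0.28. With 8 libraries, FLASH against sham ran from −0.43 to 0.53 for Cr2, −0.24 to 0.0428 for Tnfrsf17, −0.19 to 0.82 for Ltb, −0.10 to 0.13 for Ccr7 and −0.28 to 0.0507 for Cd40. CONV against sham ran from −2.64 to 2.03 for Cd79a, −0.10 to 1.04 for Btk, −0.46 to 0.55 for Blnk, −2.03 to 0.61 for Tnfrsf17, −0.76 to 1.01 for Ltb and −0.26 to 0.37 for Cd40. Relative to Cd79a, the log2 ratio of FLASH replicate 3 over CONV replicate 2 turned to 0.0437 for Cxcr5, 0.182 for Fcmr, 0.0478 for Cd72, 0.0577 for Fcrl1, 0.00119 for Spib and 0.0201 for Blk. Glycam1, Chst4, Madcam1, Vpreb3, Lta and Mzb1 had at most 4 counts over the 3 sham libraries together, so that a level lower than in sham was not detectable in them at this depth.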

Other observations

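Genes of the follicular stroma and of helper T cells, no members of the module, were also measured. Il21, the helper cytokine read by Il21r, had 1.83 CPM in FLASH replicate 3 and 3.50 CPM in CONV replicate 2, was at 0.0370 CPM or 0 in the other CONV libraries, and was at 0 in the other FLASH libraries and in sham. Tnfsf11, which encodes RANKL, had 8.50 CPM in FLASH replicate 3 and 9.68 CPM in CONV replicate 2, and at most 0.481 CPM in the other libraries. Clu, a secreted chaperone abundant in follicular dendritic cells, had 526 and 599 CPM in the pair, against 45.4 to 65.4 CPM in the other FLASH libraries, 113 and 74.4 CPM in the other CONV libraries and 38.6 to 76.1 CPM in sham. Ltbr, the receptor of lymphotoxin, ran the other way, with 20.9 CPM in FLASH replicate 3 and 18.9 CPM in CONV replicate 2. It had 53.9 to 74.9 CPM in the other FLASH libraries, 54.1 and 106 CPM in the other CONV libraries and 48.1 to 66.5 CPM in sham. Other genes of the stroma list were mixed. Relb had 65.8 and 43.8 CPM in the pair and 9.35 to 14.7 CPM elsewhere. Nfkb2 had 155 and 142 CPM in the pair and 24.3 to 31.7 CPM elsewhere. Bst1 had 21.4 and 25.5 CPM in the pair and 1.28 to 6.87 CPM elsewhere. Il7 had 26.3 and 12.6 CPM in the pair and 5.18 to 8.3 CPM elsewhere, and Tnfsf13b was also highest in the pair. Mfge8, Enpp2 and Pdpn were not clearly higher in the pair. Mfge8 had 311 and 343 CPM there and 124 to 478 CPM elsewhere. Enpp2 had 489 and 331 CPM in the pair and 299 to 471 CPM elsewhere. Pdpn had 9.26 and 10.6 CPM in the pair and 10.1 to 34.7 CPM elsewhere. Of 13 stroma genes tested with 10 libraries, log2 fold changes against sham were positive for 10 in FLASH and 11 in CONV. Over all 15266 genes tested they were positive for 8216 in FLASH and 8689 in CONV. Without the pair, 12 stroma genes were tested, and 6 were positive in FLASH and 9 in CONV. The background there was 7398 and 7822 of 15252 genes.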
